A study of Bos taurus with 2 samples.

Results

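The HOX cluster genes were read from every non-control probe of a bovine expression array whose gene name was HOXA, HOXB, HOXC or HOXD followed by a number. This rule gave 47 probes in 51 spots for 29 genes, out of 51282 probes in 61657 spots for 32429 gene names. The HOXA cluster had 8 genes, and the HOXB, HOXC and HOXD clusters had 7 each. A RefSeq gene table of cattle (assembly ARS-UCD2.0) lists 39 HOX genes, of which 29 were found under their own name on the array. A further 18 probes that the array lists by an accession were matched to HOX genes through their descriptions, and they are described apart from the members.

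The tissue was testis of adult bulls. One group was crossbred, Holstein Friesian crosses with 50 to 75% exotic inheritance, and the other was Zebu, of the Tharparkar breed. RNA from 3 bulls aged 24 months was pooled in equal quantity within each group, and after Cy3 labelling each pool was put on an array of its own, which leaves 1 crossbred and 1 Zebu array. No test between the groups can be made from 1 array each, and the differences below have no replicate check. The number of arrays limits the precision.

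HOX genes encode transcription factors that bind DNA through a homeodomain. They lie in the clusters A to D, and within a cluster the order of the genes along the chromosome follows the order in which they are used from head to tail of the embryo. Genes of the same number in different clusters descend from 1 ancestral gene and form a paralogous group. In the male tract, posterior members such as HOXA10, HOXA13 and HOXD13 are known for their part in shaping the ducts, the accessory glands and the external genitalia and in the descent of the testis, while connective tissue cells of the adult often keep a pattern of HOX use that reflects where in the body they arose.

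By the array's own annotation on the build HGSC Btau_3.1, the HOXA probes lay in chr4:71576177-71673896, the HOXB probes in chr19:39073335-39163125, the HOXC probes in chr5:28829611-28943848 and the HOXD probes in chr2:21423442-21482548. The probe order along each chromosome followed the paralogous group numbers, with HOXA and HOXB on the plus strand and HOXC and HOXD on the minus strand. One HOXB7 probe, at chr19:39090128-39090187, was designed on the minus strand, opposite to the other HOXB probes, and it was dim on both arrays. The HOXB9 probe is placed at chr19:39073335-39076030, a span far longer than its 60 bases, so that its bases fall on both sides of a gap in the genome.

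Because HOX genes resemble each other, the probe sequences bear on what each probe can read. The 3 probes shown first have runs of bases in common. Capitals mark a run of 27 bases that the HOXB4 probes have in common and, in the HOXD4 probe, a run of 20 bases that is found unchanged in both HOXB4 probes.
HOXB4, probe at chr19:39119039-39119098, over the recognition helix of the homeodomain: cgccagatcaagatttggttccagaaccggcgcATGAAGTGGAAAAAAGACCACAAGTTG
HOXB4, probe at chr19:39119072-39119131: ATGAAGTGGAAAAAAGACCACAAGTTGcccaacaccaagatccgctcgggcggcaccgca
HOXD4, probe at chr2:21423818-21423877: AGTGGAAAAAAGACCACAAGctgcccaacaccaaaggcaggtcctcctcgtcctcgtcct

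The following probes carry the differences described below. The first 30 bases of each are printed, except that for HOXA4 and HOXB8 the 30 bases around the motif AATAAA are given with the motif in capitals.
HOXA9, brightest probe, at chr4:71612818-71612877: ttacctcaaggcctactgaccaaatcgttg
HOXA9, other probe, at chr4:71611691-71611750: ggatgaaaatgaagaaaatcaacaaggacc
HOXA4, probe at chr4:71646696-71646755: tctgtagaaagccatgtgctaagAATAAAc
HOXB8, probe at chr19:39086170-39086229: cggaagagttacAATAAAgtttacaagcga
HOXC13, brightest probe, at chr5:28936922-28936981: ctttcccactggcacattacaaaacagtgt
HOXD4, brightest probe, at chr2:21423442-21423501: aatggcaggagctactgagaacataaaacc
HOXD10, brightest probe, at chr2:21457902-21457961: actttggggtcattctgttcgtgctgcaag
HOXB3, probe at chr19:39145596-39145655: agacaagatggctaggccatcaccagccaa

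AATAAA, the usual polyadenylation signal, was searched as written. It was in 2 of the 47 member probes (4.26%) and in 8.35% of all array probes. Its reverse complement TTTATT was in 1 member probe (2.13%) and in 3.30% of all. Translated in 3 frames, 8 member probes held the recognition helix of the homeodomain, the stretch most alike between HOX proteins, 4 held another part of the homeodomain, and 5 had a stop codon in every frame. The guanine and cytosine content of the member probes ran from 30% to 55%. Apart from the pairs above, the only run of 16 bases or more between probes of different HOX genes was 20 bases of the same HOXB4 helix probe in the probe of HOXD12. That HOXB4 probe also had a run of 24 bases in common with an array probe that was not matched to a HOX gene. Only exact runs were searched, so stretches alike but for a mismatch were not counted.

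A signal is an intensity that the scanner software gave after subtracting the background, and the value after ± is the error that the software gave for it. That error covers the spot only, and neither the animals nor the labelling. A level is the log2 of the signal minus the 75th percentile of its array, and every difference is the crossbred level minus the Zebu level. A probe is called readable on an array where the software marked every spot of it as well above background, and dim otherwise. A gene was read from its brightest probe and counted as detected if that probe was readable on either array. Where the dimmer array was dim in this sense, the difference could only be bounded, and the bound is given with the words at least. A difference was counted as lower or higher when it reached 1.5 on the log2 scale by the deposited signals with the brighter array readable. Spots of the same probe gave a difference an SD of 0.34 over 5960 probes readable on both arrays, and of 0.51 over 4238 probes in the level range of the HOX genes.

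The tissue label was checked against markers. The 6 spermatid genes were readable on both arrays, among them PRM1, a protamine that packs sperm DNA, at levels of 7.43 and 7.07, and none of the 3 measured epididymis genes was readable on either array. Readable spots made up 72.0% of the crossbred and 74.3% of the Zebu array, controls left out, and none was saturated. The crossbred array has a dark patch (rows 54 to 99 of columns 35 to 46) and a smaller bright patch (columns 50 to 56). None of the 51 HOX spots lay in either, so that leaving out those spots left 10 HOX genes lower and 1 higher. The median difference of the 18 spots nearest to a HOX spot ran from -0.49 to 0.54, with a median of -0.10.

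Of the 29 HOX genes, 23 were detected. On both arrays 16 were readable, 7 were so on the Zebu array only (HOXA2, HOXA5, HOXA9, HOXA10, HOXA13, HOXD11 and HOXD13) and none on the crossbred array only. HOXB1, HOXC5, HOXC6, HOXC12, HOXD8 and HOXD12 were dim on both arrays in every probe of their name. Over all transcripts detected, 4.93% were readable on the Zebu array only and 2.78% on the crossbred array only. Such cases were more frequent at low levels. In the level range of the HOX genes, 1192 of 12531 transcripts were readable on the Zebu array only and 684 on the crossbred array only. Every gene detected on the Zebu array only came into the count through the array on which it was brighter, so its direction is in part a result of that filter.

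The level of 10 of the 23 detected genes was lower by 1.5 or more in crossbred testis, 43.5% of them, and that of HOXB3 alone was higher by 1.5 or more. Over the 24751 transcripts detected, 2.92% were lower and 7.12% were higher. Among the 12531 transcripts in the level range of the HOX genes, 4.58% were lower and 7.93% higher. The 10 genes were HOXA2, HOXA4, HOXA5, HOXA9, HOXA10, HOXB8, HOXC13, HOXD4, HOXD10 and HOXD13. Among the 16 genes readable on both arrays, 5 were lower (HOXA4, HOXB8, HOXC13, HOXD4 and HOXD10) and 1 higher, beside 1.74% lower and 6.32% higher of all transcripts measured on both. With every dim side set at its bound, 7 of the 23 were lower (these 5 with HOXA2 and HOXA9), beside 2.05% of all transcripts. In whole tissue, fewer cells of a type and less RNA per cell cannot be told apart.

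Counted by the scanner error instead, 14 of the 23 genes were lower with signals that did not overlap within the error, and 4 were higher (HOXB3, HOXB4, HOXB9 and HOXC11). The same held for 36.2% of all transcripts in the lower direction and for 31.7% in the higher. HOXA7, HOXA13, HOXB2, HOXB7 and HOXC4 overlapped.

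With dim sides at their bound, the median difference was -0.58 over the detected HOX genes and -0.05 over all detected transcripts. With the deposited signals it was -1.12 for the HOX genes. These calls moved with the background correction. After normexp, which models the background and adds an offset of 50 to every signal, only HOXA9 (-2.23 at its bound) and HOXD4 (-1.56) were lower by 1.5 or more and no HOX gene was higher, while the median stayed below 0 at -0.24. Of all calls, 29.1% were in the lower direction in the main setting and 14.1% after normexp, where 0.683% of all transcripts were lower.

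**Figure D1:**
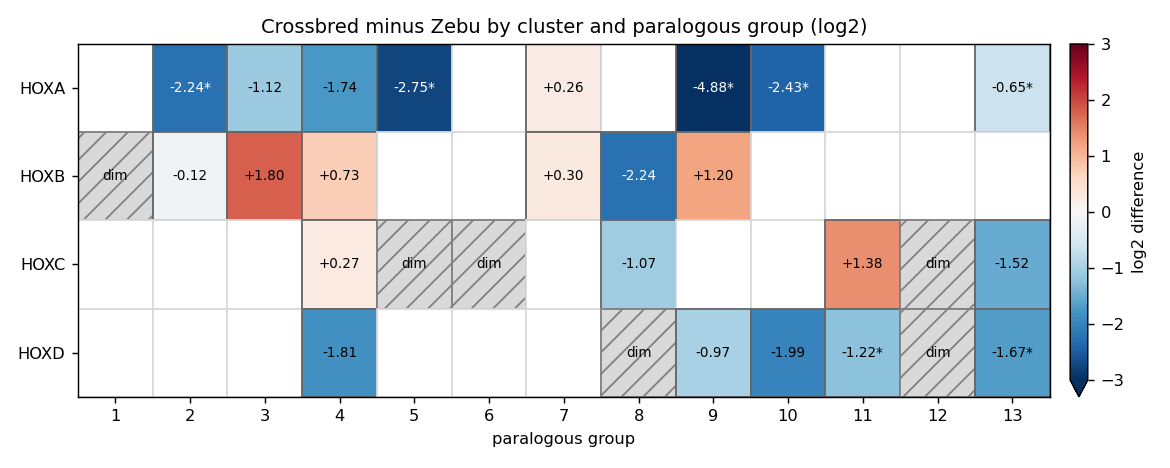
Difference between crossbred and Zebu testis (log2, by colour and as printed) for each HOX gene, with the clusters in rows and the paralogous groups in columns. White cells had no gene of that name on the array, hatched cells were dim on both arrays, and an asterisk marks a gene readable on the Zebu array only, whose value uses the deposited signal. HOXA and HOXD are mostly blue (lower in crossbred), and the orange cells are HOXB3, HOXB4, HOXB9 and HOXC11.

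The clusters are described in turn, as in the grid of differences by cluster and paralogous group. With dim sides at their bound, 52.8% of all detected transcripts and 16 of the 23 HOX genes lay below 0. Among those readable on both arrays these were 52.3% of the transcripts and 9 of the 16 HOX genes. In HOXA, 7 of 8 detected genes were below 0, 5 of them by 1.5 or more, and the median was -0.85. However, 5 of the 8, and all of those called except HOXA4, were readable on the Zebu array only. In HOXD, all 5 detected genes were below 0, 3 of them by 1.5 or more, with a median of -0.97, and HOXD11 and HOXD13 were readable on the Zebu array only. In HOXB, 4 of 6 were on the higher side and the median was 0.52, and in HOXC, 2 of 4 were on each side with a median of -0.40. The HOXB median was 0 and the HOXC median 0.09 when every detected probe was counted on its own. Differences between clusters were not tested, since genes of a cluster are not replicates.

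By position within the clusters, the median was -0.62 over 4 detected anterior genes (paralogous groups 1 to 3), -0.58 over 9 central genes (groups 4 to 8) and -0.61 over 10 posterior genes (groups 9 to 13). These values rest on the bounds. They were -0.12, -0.41 and -0.97 over the genes readable on both arrays, and -0.62, -1.07 and -1.37 with the deposited signals of all detected genes. Read from the brightest probes, the members of several paralogous groups differed in direction. In group 4, HOXA4 and HOXD4 were lower by 1.74 and 1.81 while HOXB4 and HOXC4 differed by 0.73 and 0.27. In group 9, HOXA9 and HOXD9 were lower while HOXB9 was higher. These contrasts are limited by the probes. The other HOXB4 probes were on the lower side, the HOXC4 difference lay within the SD between spots, and an accession-named HOXB9 probe gave 0.02. In groups 10 and 13, HOXD10 and HOXC13 were lower with both signals readable, while HOXA10, HOXA13 and HOXD13 were readable on the Zebu array only. HOXA7 and HOXB7 of group 7 were both slightly above 0.

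**Figure D2:**
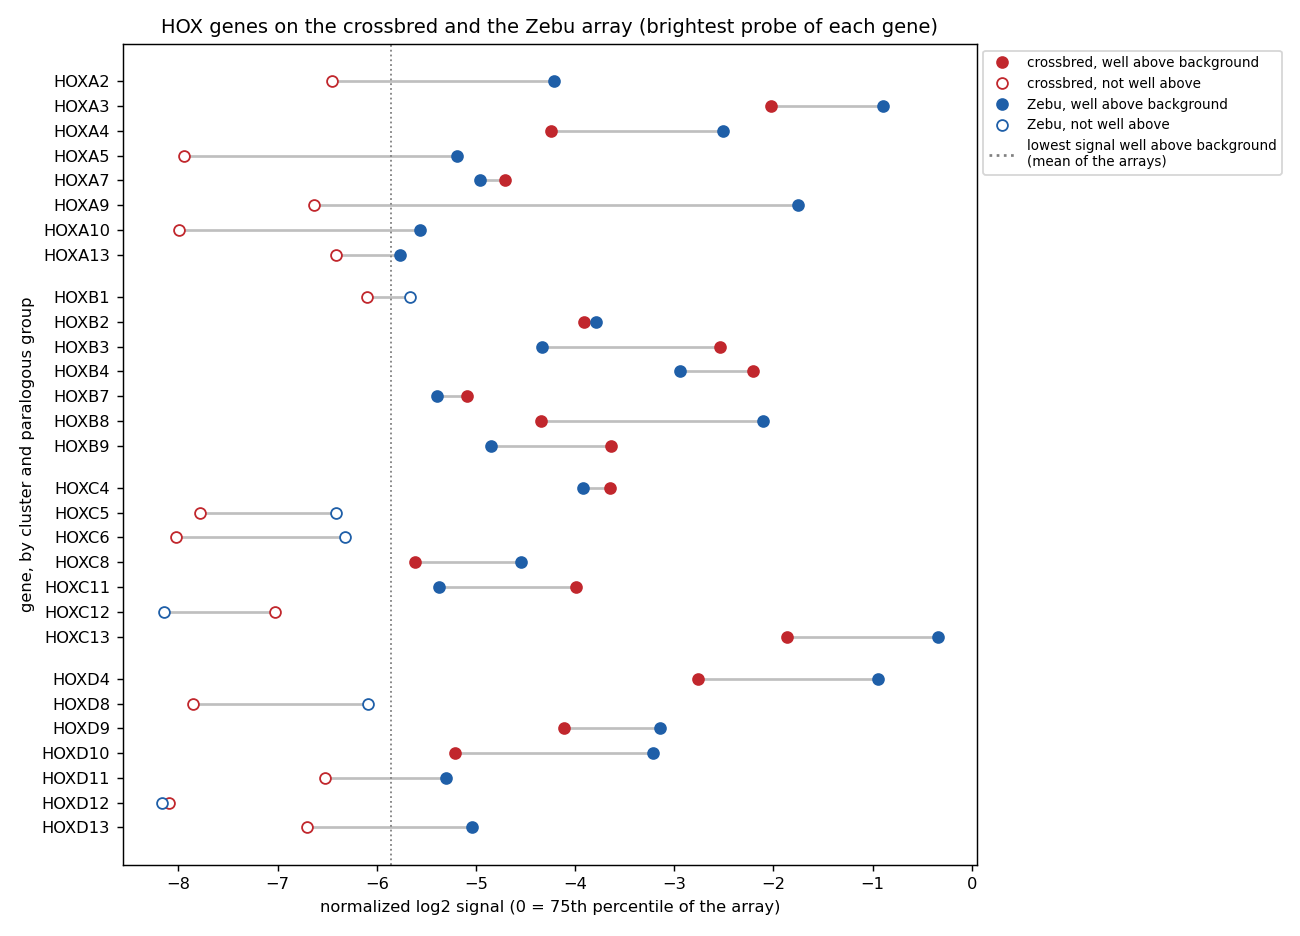
Normalized log2 level of each HOX gene on the crossbred (red) and the Zebu array (blue), read from its brightest probe, with 1 array per group and genes ordered by cluster and paralogous group. Filled points were readable and open points were not, and the dotted line is the lowest level readable, averaged over the arrays. HOXA9 has the widest gap, from an open crossbred point at -6.63 to a Zebu point at -1.75.

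In HOXA, the anterior genes specify the hindbrain and the pharyngeal arches. HOXA2, which patterns the arch that forms the middle ear, had a signal of 13.4 ± 4.96 in crossbred and 66.3 ± 8.15 in Zebu testis, at least 2.95-fold lower in crossbred. HOXA3, needed for thymus and parathyroid, read 289 ± 29.4 and 661 ± 66.3, a difference of -1.12. Both were dimmer on the crossbred array, and for both the errors did not overlap. HOXA3 had a further probe readable on the Zebu array only, with signals of 5.07 and 29.5 and a reduction of at least 1.31-fold.

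HOXA4, a central gene, read 61.9 ± 7.96 in crossbred and 217 ± 22.2 in Zebu testis, a difference of -1.74 with both signals readable. HOXA5, known for its part in lung development, read 4.79 ± 4.80 and 33.7 ± 5.77, at least 1.5-fold lower. HOXA7 was the member of the cluster with the higher signal in crossbred, 45.1 ± 6.36 against 39.6 ± 5.87. The difference of 0.26 lay within the SD between spots.

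HOXA9, a posterior gene best known from blood progenitors, had the largest difference of the HOX genes listed by name, here and under each alternative scaling. Its brightest probe read 11.8 ± 5.15 on the crossbred array, dim, and 367 ± 37.0 on the Zebu array, a reduction of at least 16.3-fold. The median difference of the spots around it was 0.45. Its other probe, about a kilobase upstream in the same orientation, was spotted at separate places of the array and gave differences of -2.57 and -1.95 in these spots, with mean signals of 6.06 ± 3.23 and 29.6 ± 3.74. That probe allows a bound of only 1.32-fold, because its Zebu signal was near the floor. Both HOXA9 probes were thus readable on the Zebu array and dim on the crossbred array.

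HOXA10, required for testis descent and for the uterus, read 4.63 ± 4.64 and 26.1 ± 5.15, at least 1.16-fold lower. HOXA13, which shapes digits and the urogenital tract, read 13.8 ± 4.71 and 22.7 ± 4.61, at least 1.0105-fold lower. For both, the Zebu signal was close to the lowest that counts as readable, so their deposited differences of -2.43 and -0.65 have little room below them.

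In HOXB, read from the brightest probes, higher and lower genes lay side by side along the chromosome. HOXB8, known from precursors of blood and microglia, read 58.0 ± 7.25 in crossbred and 287 ± 29.1 in Zebu testis, a difference of -2.24. Its neighbours on the chromosome had positive differences. HOXB7 read 34.5 ± 6.19 and 29.3 ± 5.56 (0.30, within the SD between spots), and HOXB9 read 94.3 ± 10.7 and 42.9 ± 6.63 (1.204). An accession-named HOXB9 probe, described below, gave only 0.02.

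HOXB3, an anterior gene used in the hindbrain, read 202 ± 20.7 in crossbred and 60.9 ± 7.59 in Zebu testis, a difference of 1.80. It was the HOX gene with the largest rise in signal, and it was read by 1 probe. HOXB2, beside it on the chromosome, hardly differed, at 78.1 ± 8.98 and 89.1 ± 9.86 (-0.12), and its other probe gave -0.29.

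HOXB4, known for the expansion of blood stem cells, depended on the probe. The helix probe, printed first above, read 254 ± 25.9 in crossbred and 160 ± 16.7 in Zebu testis (0.73). The probe that overlaps it by 27 bases read 20.4 ± 5.196 and 38.3 ± 5.88, which is -0.84 and at least 1.71-fold lower. The remaining probe read 12.2 and 21.4 (-0.74) and was also readable on the Zebu array only. The direction of HOXB4 therefore changed from one probe to the next, and the mean over its probes, with dim sides at their bound, was -0.01. The spot of the helix probe lay next to the brightest HOXA3 spot on the array, and the medians of the spots around these were -0.44 and -0.23.

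In HOXC, 3 of 7 genes were dim on both arrays. HOXC13, which controls hair keratins, read 324 ± 32.7 in crossbred and 971 ± 97.2 in Zebu testis, a difference of -1.52. Its other probe, readable on both arrays, gave 60.2 ± 8.39 and 67.4 ± 8.22, a difference of -0.10. HOXC8, used in the thoracic region, read 24.02 ± 4.90 and 52.9 ± 6.66 (-1.07), and HOXC4 read 93.6 ± 10.5 and 81.5 ± 9.24 (0.27).

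The gene name of HOXC11 was uncertain. Its brightest probe read 73.9 ± 8.96 in crossbred and 29.7 ± 5.48 in Zebu testis (1.38), just under the threshold, and another probe with signals of 26.1 and 20.3 was readable on the crossbred array only. These probes lay at chr5:28894494-28894553 and chr5:28894547-28894605, 13.7 kb from the remaining 2 probes of the name. The array also lists for the brightest probe a RefSeq transcript that the RefSeq gene table assigns to HOXC10, a gene for which no probe of that name was among the members. The 2 probes that carry the RefSeq transcript of HOXC11 itself were dim on both arrays, at 4.47 and 4.47 and at 5.996 and 12.9. Of the 47 member probes, 34 had a RefSeq accession of the gene they are named for, 12 had none in that table, and this was the 1 with another gene's.

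In HOXD, HOXD4, a gene of the hindbrain and neck, read 173 ± 17.9 in crossbred and 638 ± 63.9 in Zebu testis (-1.81). Its other probe, which has 20 bases in common with the HOXB4 probes, gave 82.0 ± 9.64 and 115 ± 12.5 (-0.42). HOXD10, used in motor neurons of the hindlimb, read 31.7 ± 5.64 and 132 ± 13.96 (-1.99), and its other probe, over the recognition helix, was readable on the Zebu array only, at 7.66 and 34.1. Both probes of each gene had the lower signal in crossbred testis.

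HOXD9 read 67.9 ± 6.06 and 140 ± 10.5 (-0.97), and its separate spots gave -0.99 and -0.96. HOXD11, which patterns the forearm and the kidney, read 12.8 ± 4.49 and 31.2 ± 5.05, at least 1.39-fold lower. HOXD13, the gene of the digits and the genital tubercle, read 12.02 ± 3.35 and 38.3 ± 4.23, at least 1.67-fold lower, with -1.91 and -1.43 in its separate spots. In all, 3 HOXD genes were readable on both arrays, and their differences lay between -0.97 and -1.99.

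**Figure D3:**
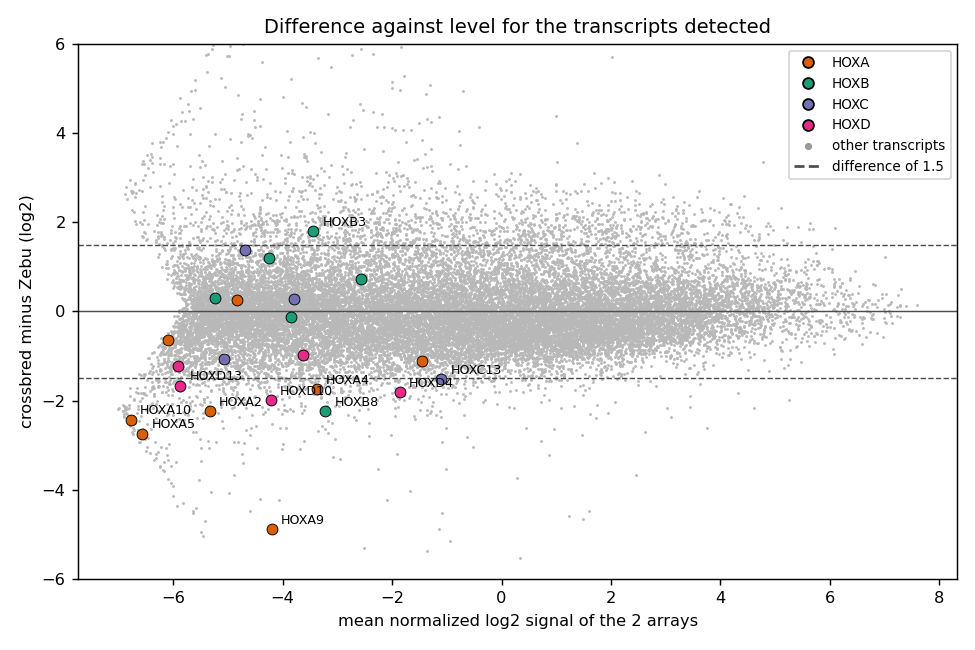
Difference between crossbred and Zebu testis (log2) against the mean normalized log2 level of the arrays, for the HOX genes detected (coloured by cluster, named where they reached the threshold) and all other transcripts detected (grey). Dashed lines mark a difference of 1.5, deposited signals were used on both arrays, and 32 other transcripts lie beyond the axis limit of 6. The HOX genes lie in the lower part of the range of levels, between -6.78 and -1.10, where the grey points spread most.

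The HOX genes were read at low signals, as the plot of difference against level shows. On the Zebu array the detected genes ran from 22.7 to 971 with a median of 66.3, and on the crossbred array from 4.63 to 324 with a median of 58.0, beside a median of 126 and 129 over all spots of the crossbred and the Zebu array. Among the genes lower by 1.5 or more, HOXA4, HOXB8, HOXC13, HOXD4 and HOXD10 had Zebu signals of 132 or more. HOXA5, HOXA10 and HOXD13 had Zebu signals between 26.1 and 38.3, against a median local background of 35.5 on that array.

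**Figure D4:**
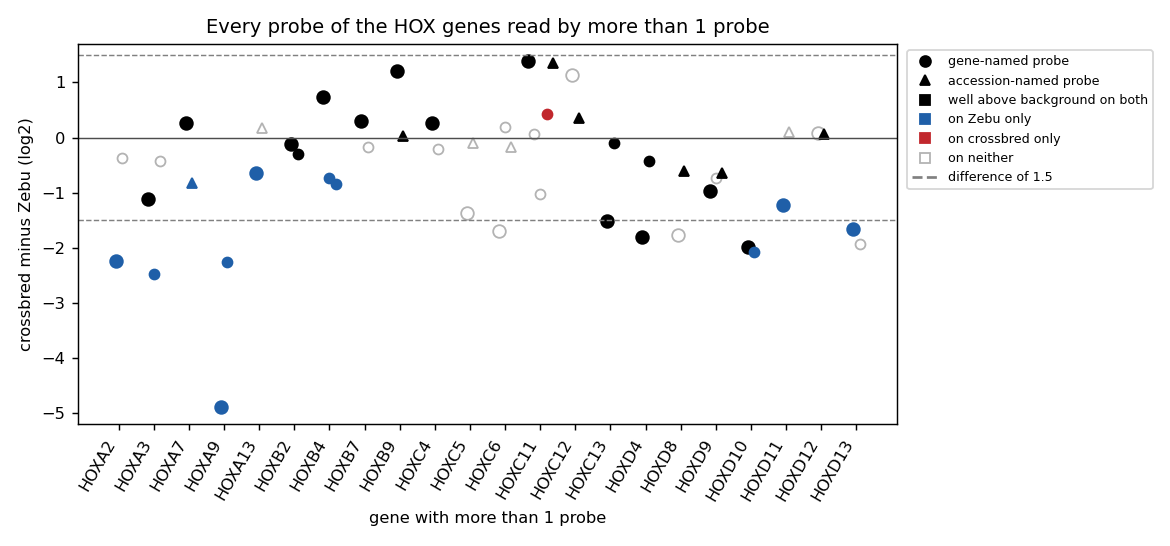
Difference between crossbred and Zebu testis (log2) for every probe of the HOX genes read by more than 1 probe, with gene-named probes as circles (the brightest drawn larger) and accession-named probes as triangles. Colour shows on which array the probe was readable, and open grey symbols were dim on both. The probes of HOXA9, HOXD4, HOXD9 and HOXD10 lie on the lower side, while those of HOXB4 lie on both sides of 0.

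The probes of a gene can be set side by side. For 14 genes with more than 1 member probe, 9 of the 18 other probes were detected. Of these, 3 were readable on both arrays, for HOXB2, HOXC13 and HOXD4, and they had the sign of the brightest probe with differences of -0.29, -0.10 and -0.42. All 3 lay within the SD between spots of 0.51 in the level range of the HOX genes. The brightest probes of HOXC13 and HOXD4 gave -1.52 and -1.81. No gene called lower thus reached 1.5 in a second probe readable on both arrays, and only HOXC13 and HOXD4 among them had such a member probe. HOXA4, HOXA5, HOXA10 and HOXB8 were each read by 1 member probe in 1 spot. The other 6 detected probes were readable on 1 array only, so that the filter on dim probes bears on their direction. They were on the lower side for HOXA3, HOXA9, HOXD10 and both further HOXB4 probes, with bounds no further from 0 than -0.77, and on the higher side for HOXC11. Leaving out the 8 probes over the recognition helix left 10 genes lower and 1 higher, with a median of -0.76, an alternative chosen after seeing the data.

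Of the 18 accession-named probes, for 17 genes, 14 were detected, with differences from -0.85 to 1.35 and a median of -0.06. On each side of 0 lay 7 of them, none reached 1.5, and 6 were within the SD between spots. Of 11 that read a member gene, 3 were readable on both arrays together with the brightest member probe (HOXB9, HOXC11 and HOXD9), and all 3 had its sign. For HOXB9, however, the accession-named probe gave only 0.02, within the SD between spots. For HOXC11 the gene name of the member probe was uncertain.

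Among genes that no member probe read, HOXA11, a partner of HOXA10 in the reproductive tract, was bright in both of its probes and differed by -0.15 in each, with signals of 4129 and 4797 in the brighter. HOXB13 (0.24) and HOXC9 (-0.51) also stayed below 1 in size, HOXD3 read 138 in crossbred and 74.4 in Zebu testis (0.90), and HOXA6 was readable on the Zebu array only and at least 1.37-fold lower. These genes spread over both directions.

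For genes that the members also read, HOXD9 and HOXD8 differed by -0.64 and -0.60 in the accession-named probes. The HOXD8 probe was bright, at 789 and 1254, whereas the member probe of HOXD8 was dim on both arrays. HOXB9, at 231 and 238, differed by 0.02 against 1.204 in its member probe, and HOXA7 by -0.83, dim on the crossbred array, against 0.26. HOXC11 by its accession-named probe differed by 1.35, at 263 and 112. HOXC12 (0.35) and HOXD12 (0.06) had accession-named probes readable on both arrays and dim member probes, and the HOXD12 probe was 81.7% guanine and cytosine. With these probes added, the HOX genes measured rose from 29 to 35, and more of them were detected. With the brightest probe kept for each gene, 10 were lower and 1 higher, so both are smaller shares than without these probes. The median was then -0.33, again an alternative chosen after seeing the data.

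Genes that act with or on the HOX clusters were read from lists. Of 9 cofactors, homeodomain proteins that bind DNA together with HOX proteins, all were detected, with a median of -0.07. MEIS3 was at least 1.51-fold lower with a probe in the dark patch, and PKNOX2 at least 1.09-fold lower. MEIS1 and MEIS2 differed by 0.37 and -0.07. Of the ParaHox genes, relatives of HOX outside the clusters, 4 of 5 measured were detected, GSX1 (-0.42) and CDX1 (-0.69) on both arrays and CDX2 and PDX1 on the Zebu array only, with a median of -0.55. CDX2 was at least 1.60-fold and PDX1 at least 1.22-fold lower, and neither reached 1.5 on the log2 scale.

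Polycomb proteins keep HOX genes silent, and Trithorax proteins keep them active. The 16 Polycomb genes had a median of -0.02, and CBX2, a Polycomb gene needed for male gonad development, was the only one past the threshold, at least 2.19-fold lower with a dim crossbred side. That call was lost after normexp and after quantile normalization. The 10 Trithorax and demethylase genes had a median of -0.06, and MLL was higher by 1.70 with a probe in the bright patch of the crossbred array, a call that was lost after normexp. Retinoic acid turns on anterior HOX genes in the embryo. Of 15 genes of its pathway detected, CYP26A1 and CYP26B1, which break it down, were higher by 2.51 and 1.76, CRABP2, which carries it in the cell, was lower by 2.38, and the median was -0.14. After normexp 1 gene of the pathway was higher by 1.5 or more and 1 lower.

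The genes that flank the clusters showed no call. Of 14 neighbours detected, such as SKAP2 beside HOXA (0.14), CBX5 beside HOXC (-0.04) and MTX2 beside HOXD (0.75), none reached 1.5, and the median was -0.03. EVX1 and EVX2, homeobox genes at the posterior ends of HOXA and HOXD, differed by 0.23 and 0.30.

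**Figure D5:**
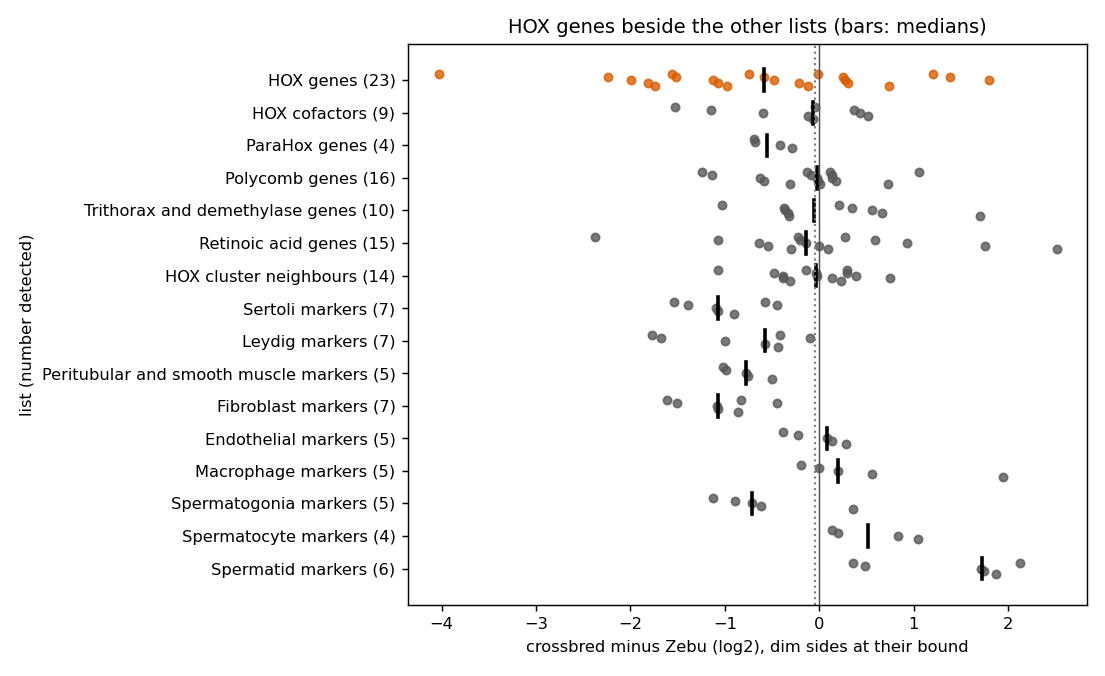
Difference between crossbred and Zebu testis (log2, dim sides at their bound) for each detected gene of the HOX genes (orange) and of the other lists (grey), with the number detected in brackets and vertical displacement for legibility only. Bars are medians and the dotted line is the median over all detected transcripts, -0.05. The HOX genes spread from -4.03 to 1.80, and the Sertoli, Leydig, peritubular and fibroblast markers lie to the left of 0.

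The lists of testis cell markers are set beside the HOX genes, against 52.8% of all transcripts below 0. All 7 detected Sertoli markers were below 0 (median -1.08), and 1 passed the threshold. DHH, the signal that Sertoli cells send to Leydig cells, was lower by 1.53. All 7 Leydig markers were below 0 (median -0.57), and 2 passed, with the steroid enzymes CYP17A1 and HSD3B1 lower by 1.68 and 1.77. All 7 fibroblast markers were below 0 (median -1.08), and 2 passed, with COL3A1 lower by 1.51 and TCF21 by 1.61, and all 5 peritubular and smooth muscle markers were below 0 (median -0.77) with none past the threshold. After normexp no Sertoli or fibroblast marker passed, and 2 Leydig markers did.

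Summed over a list, in multiples of the array's 75th percentile, the crossbred and the Zebu array gave 55.0 and 104 for the Sertoli, 87.8 and 133 for the Leydig, 29.3 and 51.6 for the peritubular and smooth muscle and 14.9 and 30.4 for the fibroblast markers. Bright probes weigh most in such sums. INSL3, at levels of 6.25 in crossbred and 6.69 in Zebu testis, made up most of the Leydig sums. Endothelial markers differed little, with sums of 0.951 and 0.974 and a median of 0.08. For macrophage markers the sums were 17.9 and 9.32, and AIF1 was higher by 1.95, while CD163 was readable on the Zebu array only with no bound.

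Among the germ cell markers, 4 of 6 spermatid markers were higher by 1.5 or more and no spermatogonia or spermatocyte marker passed in either direction. Spermatogonia markers had sums of 27.2 and 39.5 and a median of -0.71, spermatocyte markers 12.02 and 9.72 and a median of 0.52, and spermatid markers 523 and 271 and a median of 1.73. PRM2, TNP2, ODF1 and AKAP4 were higher by 1.88, 1.74, 2.13 and 1.71. The cell marker lists were read on the same arrays as the HOX genes, with medians on both sides of 0. Their part in the HOX differences was not tested.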

How the data were processed

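Pooled testis RNA of 3 bulls per group was read on a bovine Cy3 array each, and the sample titles give the group (crossbred or Zebu). The authors deposited the processed signal of each spot with its error, an intensity that, per the file headers, Agilent Feature Extraction 11.5.1.1 had background-subtracted and detrended within the array. The mean intensity of each spot and its local background were deposited untreated. The authors also deposited log2 values shifted by the 75th percentile of each array in GeneSpring. Real-time PCR was not analysed here. Results for some single genes are not reported here.

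Control spots and 13 outlier spots were left out. Spots of 1 probe were averaged on the log2 scale. Each array was then shifted by the 75th percentile of its non-control probes, which lay at signals of 1176 (crossbred) and 1233 (Zebu). A dim side was bounded by the higher of its own level and the lowest level well above background, -5.78 on the crossbred and -5.94 on the Zebu array, and a bound of 0, or dim signals on both sides, gave no fold. Levels of different probes were not compared, although the sums over the marker lists add signals of different probes. With 1 array per group no test was run, and counts and medians are set beside those of all detected transcripts. The HOX genes, the lists and the threshold were chosen with earlier results of these data known. Named are all HOX genes, with values where a probe was detected, and from the lists the members past 1.5 or with a bound; MEIS1, MEIS2, PRM1 and the flanking genes printed were named after their values were seen.

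Probe sequences and places are those of the array files on the build HGSC Btau_3.1. Exon and UTR positions were not assigned. Alternatives were normexp, other shifts, quantile normalization, the deposited log2 values, other thresholds, filters, bounds and probe rules, and the spots of the patches left out. The scaling and the calls were tested on simulated data, with shifts placed in bright probes readable on both arrays. The noise was that of all probes readable on both arrays. The bounds and the filter on dim probes were not covered, nor were signals as low as those of most HOX genes. Python 3.11.15 with numpy 2.4.6, pandas 2.3.3, scipy 1.17.1, biopython 1.88 and matplotlib 3.10.9 and limma 3.58.1 in R 4.3.3 did the computing.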

Additional observations from a re-analysis of the deposited data

How the results depend on the processing

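Of 120 comparisons of the HOX counts and medians with an alternative, 91 stayed within a factor of 1.5 (counts) or moved by less than 0.34, the SD between spots (medians). Quantile normalization, the deposited log2 values, shifts by the median or by a 75th percentile taken over readable probes alone, and leaving out the patches each gave 10 lower and 1 higher. Apart from quantile normalization, these alternatives moved every HOX difference by about the same small amount, and no HOX spot lay in a patch. They could therefore hardly change a call, although they are among the 120 comparisons. Normexp with an offset of 50 gave 2 lower and 0 higher, a median of -0.24 over the HOX genes, -0.40 for HOXA, -0.54 for HOXD, -0.11 for central and -0.25 for posterior genes, and -0.17 for the ParaHox genes. A threshold of 1 gave 13 lower and 3 higher, and a linear fold of 1.5 gave 15 and 4. Genes readable on both arrays gave 5 lower and medians of -1.81 for HOXD, -0.12 for anterior and -0.97 for posterior genes. Without a filter the medians were -1.12 over the HOX genes, -1.99 for HOXA, -1.07 for HOXC, -1.67 for HOXD, -1.54 for central and -1.10 for posterior genes. With dim sides at their deposited signal they were -1.12, -1.99 for HOXA, -1.67 for HOXD, -1.07 for central and -1.37 for posterior genes. Every detected probe on its own gave -0.49 for HOXA, 0 for HOXB and 0.086 for HOXC, and averaging a gene's probes gave 0.069 for HOXB and -0.49 for HOXD. No called gene changed direction. For the 5 called genes readable on the Zebu array only, the bound was held at or below 0. Those bounds could not turn positive under any alternative. The cause of these shifts was not tested. No paired analysis was possible because each group has 1 array and the labels carry no replicate numbers. Most HOX signals lie near the local background, which limits folds to bounds where the crossbred side is dim.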
